A study of Gallus gallus with 6 samples.

Results

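Transcription factor genes of the SOX, FOX, ETS and homeobox families, with smaller related families, were examined in lens fiber cells of the chick embryo. Fiber cells are the elongated cells that fill the lens. The members are the rows whose symbols match a set of names, drawn up with earlier results of these data known: SOX genes other than SOX1 and SOX2, forkhead genes named FOXA to FOXS apart from the FOXO group, most PAX names, and names of the sine oculis, HOX, LHX, MEIS, PBX, TFAP2, GATA, TBX, EYA, TEF and NFI kinds, with ELK3, ELK4, ETS1, ETS2, HMX1 and ATOH7. These rules matched 43 of the 9107 gene rows of the deposited RNA-seq table. Of the 43 rows, 37 belong to factor families or to the EYA genes, and 6 share only the first letters of a family: SOX2OT_exon1, SOX2OT_exon3, PAXBP1, PAXIP1, TBXA2R and TBXAS1. Names of the sine oculis, HOX and LHX kinds and the symbols ETS2 and ATOH7 matched 0 rows and are not analysed here.

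Lenses came from White Leghorn embryos at embryonic day 13 and were kept whole in medium with fetal bovine serum. The untreated group was taken at 0 h (3 pools) and the hypoxia group after 8 h in 1% O2 (3 pools), each pool holding the microdissected fiber cells of 10 to 15 lenses. According to the labels these are biological triplicates, and no genetic modification is named. The comparison asks which of these genes changed over 8 h of hypoxia, but 0 RNA libraries analysed here were kept for 8 h in normoxia, so low oxygen and the hours in culture cannot be told apart. Levels are normalized counts, that is, read counts that were scaled by 1 size factor per library and rounded before deposit. They are not corrected for transcript length, so levels of different genes are not compared. Log2 fold changes are hypoxia over untreated on the log2(count + 1) scale, ± SE, from limma fitted over 9105 genes, and a gene passed at a Benjamini-Hochberg adjusted p under 0.05. Means of normalized counts are given ± SD (n = 3 pools).

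SOX proteins bind DNA through a high-mobility-group domain, bend it and act with partner factors. Forkhead proteins bind through a winged helix, ETS proteins through the ETS domain, and homeodomain proteins of the MEIS and PBX kind bind together as cofactors of other homeodomain factors. EYA proteins do not bind DNA themselves but are coactivators of homeodomain factors. In the vertebrate lens such factors set the identity of the placode, hold the epithelium in a proliferating state and accompany the exit from the cell cycle when fiber cells form.

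Depth, as reads on the listed genes recovered from the table, ran from 23.5 M to 29.1 M in the untreated libraries. In the hypoxia libraries it ran from 29.4 M to 32.6 M, so every hypoxia library was deeper. All 43 members passed the filter of a mean of at least 1, but the table as deposited has 48 rows with a mean under 20, so genes low in both groups are mostly outside it. Among all genes tested, 119 had an untreated mean under 20, and 98 of these were higher after 8 h. SOX9, ETS1, TBXA2R and TBXT are the 4 members of that kind. A gene so low in untreated lenses is in the table mainly when its hypoxia values are high. The 19 lens fiber markers measured include crystallins and beaded filament genes. They summed to 18407039 to 20585132 normalized counts in the untreated pools and 15280207 to 16490912 in the hypoxia pools. Of these markers 15 were lower and 0 higher, while 25.7% of all genes tested were lower and 29.4% higher. Under library totals 7 were lower, and under upper quartiles 19. Of the calls over all genes, 78.9% were higher with library totals and 42.2% with upper quartiles. Most of the fiber marker sum was 1 gene, ASL1, which held 48.2% to 53.1% of all normalized counts of a pool. ASL1 itself did not pass in the main fit (log2 fold change -0.28 ± 0.12, adjusted p = 0.0632), though all its hypoxia pools lay below the untreated pools. It passed as lower with upper quartiles (adjusted p = 0.0106) and recomputed median ratios (adjusted p = 0.0499). It also passed with the replicate block (adjusted p = 0.0178) and without hypoxia pool 3 (adjusted p = 0.0239). Of 15 lens epithelium markers 10 were measured, and their sum ran from 35855 to 38391 untreated and from 27266 to 31652 after 8 h.

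Of the 43 members, 25 were higher, 3 were lower and 15 did not pass. Higher genes thus made up 58.1% of the members, against 29.4% of all genes tested, and lower genes 6.98%, against 25.7%. Together 65.1% of the members were called, against 55.1% of all genes. The 25 higher include SOX9, ETS1 and TBXA2R, which are in the table mainly through their hypoxia values. TBXT, also low in untreated pools, did not pass. The shares of all genes, 29.4% higher and 25.7% lower, also stand beside each family and list count of the main fit below. No family or list was tested against them. They do not hold for other scalings: of the calls over all genes, 53.4% were higher in the main fit, 78.9% with library totals and 42.2% with upper quartiles. Of the 37 rows of factor families and EYA genes, 20 were higher and 3 lower. The median log2 fold change was 0.58 over the members and 0.49 over those 37, beside -0.01 over all genes. The hypoxia pools all lay above the untreated pools in 25 members (58.1%; 32.6% of all genes) and all below in 3 (6.98%; 30.1% of all genes). These were the same 28 members that passed. In bulk tissue, fewer cells of a type and less RNA per cell cannot be told apart.

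A change of at least 2-fold was seen in 10 members that rose (23.3%; 10.2% of all genes) and in 1 that fell (2.33%; 3.96% of all genes). Of these 10, 5 were rows that share only a prefix. SOX9, ETS1 and TBXA2R are among the 10, and they are in the table mainly through their hypoxia values. Genes of that kind are also among all genes tested. How far the difference from all genes depends on which genes the table lists was not tested. Among the 37 rows of factor families and EYA genes, 5 rose at least 2-fold (13.5%, near the share of all genes) and 1 fell (2.7%). SOX9 and ETS1 are among those 5. In the authors' deposited table the adjusted p is under 0.05 for the same 28 members in the same directions, with 25 higher (28.1% of all genes there) and 3 lower (22.4%). Scaling by library totals shifted the median log2 fold change of all genes up by 0.216 and gave 27 members higher and 1 lower. Scaling by upper quartiles shifted it by -0.114 and gave 25 higher and 6 lower.

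**Figure D1:**
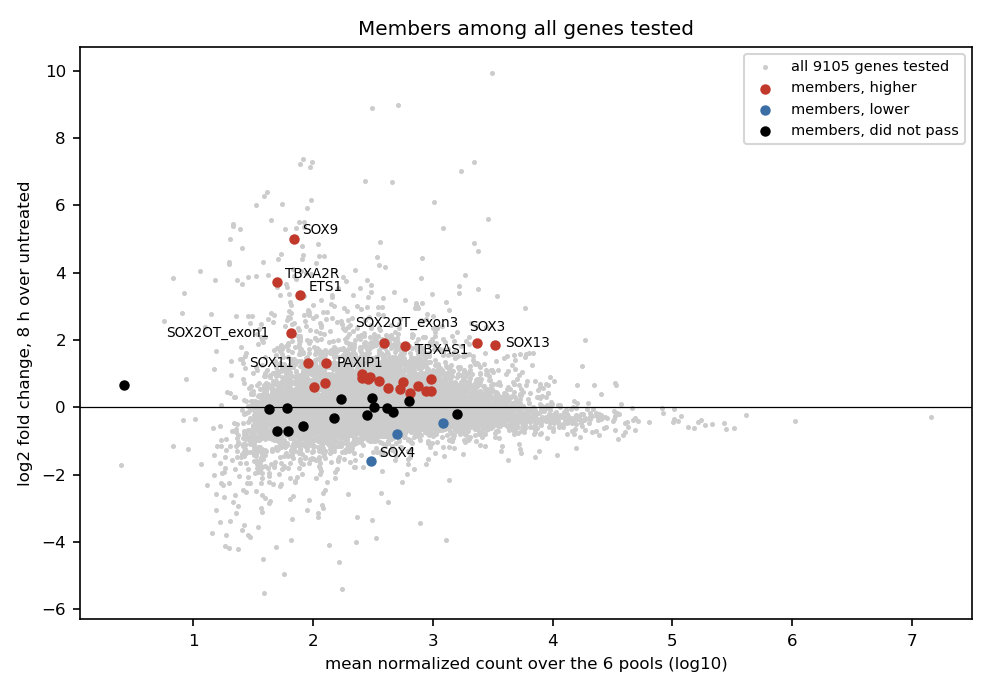
Log2 fold change (8 h in 1% O2 over untreated) against the mean normalized count over the 6 pools on a log10 scale, with all 9105 genes tested in grey and the 43 members coloured by whether they rose, fell or did not pass. The 11 members that moved at least 2-fold are named, with SOX9 at 5.02 and SOX4 at -1.60 as the ends of the members' range.

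The SOX family held the widest spread, with 4 of 6 genes higher, 1 lower and 1 not passing. SOX9, of group E, is a regulator of cartilage, neural crest and glial cells. It stood at 6, 4 and 1 normalized counts in untreated pools 1, 2 and 3 and at 162, 125 and 115 in the hypoxia pools. SOX9 was thus close to silent in untreated fiber cells and present in every hypoxia pool. Its log2 fold change was 5.02 ± 0.47 (adjusted p = 5.98e-06), but a gene so low in untreated pools is in the table mainly through its hypoxia values. The untreated libraries held 10 SOX9 reads in all, and the hypoxia libraries 472, a 33.9-fold difference once corrected for the size factors (exact 95% interval 18.3 to 71.2, counting error only). On so low a base the pseudocount matters: with 5 in place of 1 the log2 fold change was 4.03. SOX8, also of group E, stood at 78, 64 and 39 untreated and at 44, 43 and 98 after 8 h. Those values overlap, and hypoxia pool 3 alone was above all untreated pools. The log2 fold change of SOX8 was -0.02 with a 95% interval of -0.82 to 0.78.

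SOX3, a group B1 factor expressed in the early nervous system and lens placode of the chick, stood at 962, 950 and 1039 in the untreated pools. After 8 h it stood at 4050, 3344 and 3736. The untreated pools were nearly level, and every hypoxia pool was far above them. SOX3 rose 3.76-fold (log2 fold change 1.91 ± 0.10, adjusted p = 5.67e-08), the smallest adjusted p among the members. SOX13, of group D, rose to a like extent, from 1244, 1446 and 1532 to 5951, 5130 and 4414 (1.87 ± 0.12, adjusted p = 4.68e-07). Its hypoxia pools were uneven, yet each was well above all untreated pools.

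The group C genes SOX4 and SOX11, which encode activators of much the same type in developing neurons, moved in opposite directions. SOX4 fell from 480, 485 and 418 to 165, 156 and 133, which is 3.04-fold lower (-1.60 ± 0.13, adjusted p = 1.63e-06). No hypoxia pool came near the lowest untreated pool. SOX11 rose from 62, 50 and 42 to 126, 116 and 147 (1.33 ± 0.21, adjusted p = 0.000278). Within a pool, the log2 ratio of SOX4 to SOX11 was 2.93, 3.25 and 3.28 in the untreated pools and 0.39, 0.42 and -0.14 in the hypoxia pools. That balance does not depend on how libraries are scaled to each other.

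SOX2OT_exon1 and SOX2OT_exon3 are separate rows for exons of a long non-coding transcript of the SOX2 locus, and they are not independent of each other. The first stood at 16, 35 and 19 untreated and at 89, 128 and 106 after 8 h (2.22 ± 0.31). The second went from 141, 162 and 197 to 620, 636 and 607 (1.90 ± 0.13, adjusted p = 5.62e-07). Both rows lay higher in every hypoxia pool. In other vertebrates the SOX2 gene lies within this transcript. SOX2 itself, which is outside the member rule, stood at 662, 807 and 770 and then at 1395, 1459 and 1834 (1.06 ± 0.12). How reads that fall on overlapping transcripts were counted is not known, and neither is the strand setting. Whether the SOX2OT rows and SOX2 share reads was not tested.

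**Figure D2:**
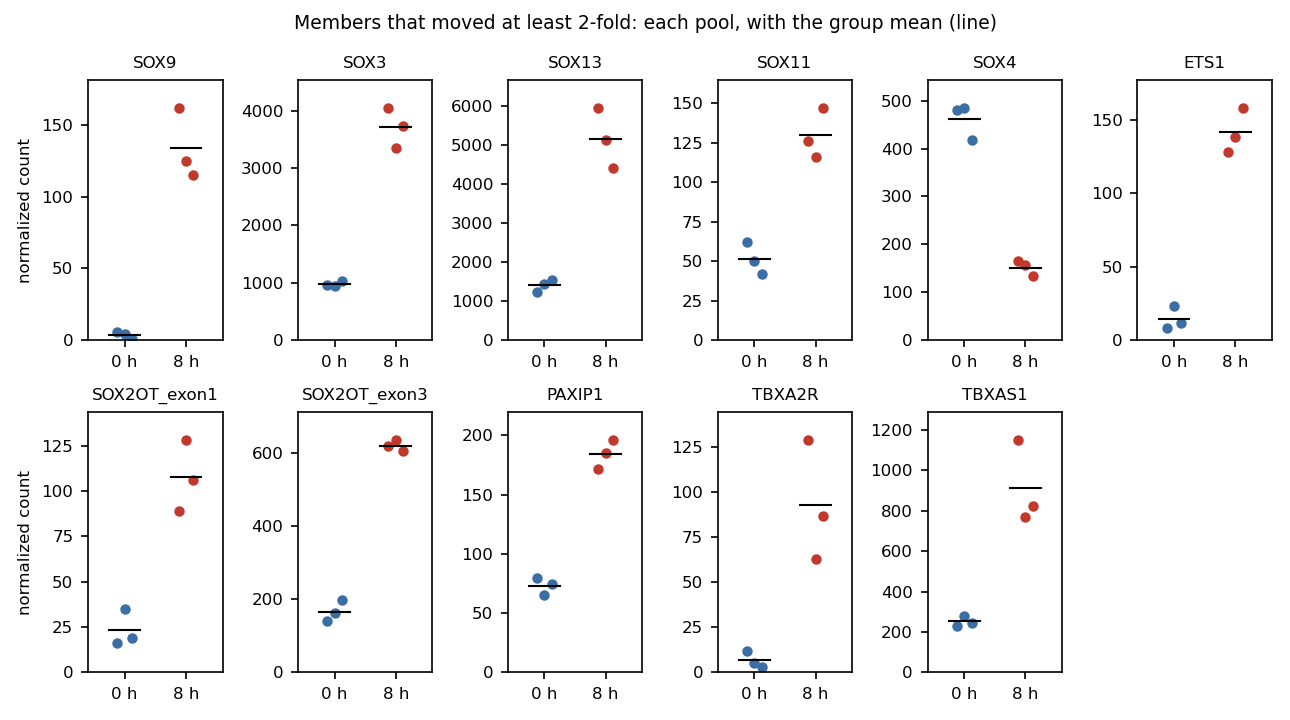
Normalized counts in each of the 3 untreated pools (0 h, blue) and 3 hypoxia pools (8 h, red) for the 11 members that moved at least 2-fold, each panel with its own axis from 0 and a line at the group mean. The groups do not overlap in any panel, and SOX4 is the only gene shown that was lower after 8 h.

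Among the ETS factors, ETS1 was higher while ELK3 and ELK4 did not pass. ETS1, an activator downstream of ERK signalling that is also found in endothelium and lymphocytes, stood at 8, 23 and 12 in the untreated pools. In the hypoxia pools it stood at 128, 138 and 158. The log2 fold change was 3.33 ± 0.35 (adjusted p = 1.36e-05), or 10.1-fold, and ran from 2.99 to 3.71 over all fits. Being so low in untreated pools, ETS1 is in the table mainly through its hypoxia values. ELK3 and ELK4 are ternary complex factors, which bind DNA with the serum response factor. ELK3 stood at 202, 147 and 125 and then at 203, 204 and 156, with a log2 fold change of 0.26 (95% interval -0.15 to 0.68). ELK4 stood at 303, 356 and 236 and then at 171, 346 and 271 (-0.22, interval -0.82 to 0.38). Both overlapped between groups.

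Other ETS genes and partners of the ternary complex factors were described from lists of names. Of 24 other ETS genes listed 10 were measured, with 7 higher, 3 lower and 0 not passing (median log2 fold change 0.30). ETV6, a repressor, rose by 1.48 ± 0.12 on the log2 scale, ETV3 by 1.14 ± 0.11 and ELF1 by 1.23 ± 0.13. The 3 lower were ETV1 (-0.81 ± 0.12), ETV5 (-0.33 ± 0.09) and FEV (-0.69 ± 0.20). The PEA3 group, which responds to FGF in many tissues, was mixed: ETV1 and ETV5 fell, while ETV4 rose by 0.30 ± 0.11 on the log2 scale (adjusted p = 0.0428). The ETV4 call ended with upper quartiles, in limma without a trend and without any 1 pool other than hypoxia pool 3. The calls of ETV5 and FEV ended with library totals, and that of FEV also without untreated pool 3. ELF3 was listed at 0 in all untreated pools and at 31, 36 and 61 after 8 h. It is among the 7 higher, but a gene so low in untreated pools is in the table mainly through its hypoxia values. Upper-quartile scaling called 4 of the 10 higher and 3 lower, while library totals called 7 and 1. Over all genes 42.2% of calls were higher with upper quartiles and 78.9% with library totals. Of 21 partners of the ternary complex factors in the SRF and ERK pathways, 17 were measured, with 8 higher and 2 lower (median 0.23). SRF, the serum response factor, rose from 440 ± 49 to 1686 ± 265 (1.93 ± 0.12). DUSP1 and DUSP5, phosphatases that switch off MAP kinases, rose by 2.09 ± 0.12 and 2.82 ± 0.26 on the log2 scale. MRTFA, an actin-regulated SRF coactivator, fell by 0.35 (adjusted p = 0.0207). The Sprouty and SPRED inhibitors of the pathway were mixed. SPRED1 fell by 0.38 (adjusted p = 0.0256), while SPRY1 rose by 1.24 ± 0.21, SPRED2 by 0.66 ± 0.18 and SPRY2 by 0.52 ± 0.20 (adjusted p = 0.0489). The calls of MRTFA and SPRED1 ended with library totals, with or without crystallins, and without hypoxia pool 3 or untreated pool 2. That of MRTFA ended also without untreated pool 1, and that of SPRED1 without untreated pool 3. The SPRY2 call ended with upper quartiles, recomputed median ratios, in limma without a trend and without any 1 pool other than hypoxia pool 2. With library totals, where 78.9% of the calls over all genes were higher, 12 of these 17 were higher and 0 lower.

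Forkhead genes rose or did not pass: 6 of 9 were higher and 0 lower (all genes tested, 29.4% higher and 25.7% lower). FOXK1 and FOXK2, repressors linked in mouse and human cells to autophagy and glucose metabolism, both rose. FOXK1 went from 158, 161 and 196 to 350, 383 and 295, close to doubling (1.99-fold, 0.99 ± 0.14, adjusted p = 0.000147). FOXK2 went from 564, 645 and 552 to 861, 984 and 904 (0.64 ± 0.10, adjusted p = 0.00028). FOXJ2 went from 252, 290 and 250 to 433, 491 and 434 (0.78 ± 0.11). In each of these the lowest hypoxia pool was above the highest untreated pool. FOXN2 stood at 209, 233 and 185 and then at 383, 377 and 413 (0.91 ± 0.12, adjusted p = 9.73e-05). Its relative FOXN3, a repressor, stood at 258, 284 and 297 and then at 253, 420 and 370. FOXN3 missed the threshold (0.28 ± 0.17, adjusted p = 0.183), but passed without hypoxia pool 1, its lowest hypoxia value (0.50, adjusted p = 0.00727), and with library totals (0.50, adjusted p = 0.0367).

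The FOXP genes encode repressors that pair with one another. FOXP2 rose from 220, 210 and 192 to 345, 420 and 356 (0.84 ± 0.12, adjusted p = 0.000171). FOXP4 rose from 762, 743 and 943 to 1117, 1173 and 1103 (0.48 ± 0.11, adjusted p = 0.00272). FOXP1 stood at 376, 277 and 308 and then at 268, 391 and 324, with a log2 fold change of 0.03 and a 95% interval of -0.32 to 0.38. Its groups overlapped fully. FOXL3, known from germ cells of the medaka fish, stood at 28, 43 and 51 and then at 15, 58 and 63, and its interval, -1.20 to 1.11, was among the widest of the members. FOXO3, the only measured member of 4 FOXO genes listed, rose by 0.34 ± 0.12 on the log2 scale (adjusted p = 0.0297). That call ended with upper-quartile scaling (0.22), in limma without a trend and without untreated pool 2 or 3 or hypoxia pool 2 or 3.

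Homeobox members with a longer loop in the homeodomain, the TALE class, held 5 rows, of which 3 were higher, 0 were lower and 2 did not pass. MEIS1 rose from 197, 178 and 164 to 352, 327 and 317 (0.88 ± 0.12, adjusted p = 0.000117). MEIS2, which like MEIS1 acts in early eye development of the chick and mouse, stood at 536, 503 and 443 and then at 452, 434 and 451. MEIS2 gave a log2 fold change of -0.14 with a 95% interval of -0.37 to 0.09. PBX3 rose from 343, 317 and 349 to 485, 543 and 482 (0.58 ± 0.10, adjusted p = 0.000741). PBX4 rose from 64, 91 and 89 to 132, 117 and 117 (0.59 ± 0.19, adjusted p = 0.0197), a call that ended without untreated pool 1 (adjusted p = 0.0682) or hypoxia pool 1 (adjusted p = 0.0576).

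HMX1, a homeobox gene of the developing eye and ear, stood at 799, 645 and 756 in untreated pools and at 1071, 994 and 1025 in hypoxia pools. It rose 1.41-fold (0.49 ± 0.10, adjusted p = 0.00172). Of 11 other TALE genes listed 4 were measured, with 2 higher and 0 lower (median 0.36). The repressor gene TGIF1 rose from 172 ± 10 to 464 ± 52 (1.42 ± 0.12) and PKNOX2, of the PREP group that also binds PBX proteins, by 0.39 ± 0.14 on the log2 scale (adjusted p = 0.0365). The PKNOX2 call ended with upper quartiles and without untreated pool 2 or 3 or hypoxia pool 1 or 2. Over the alternatives 1 to 3 of these 4 were higher and 0 or 1 lower. Of 105 other homeobox genes listed 20 were measured, with 6 higher, 4 lower and 10 not passing (median -0.13). ZHX2, ZEB1 and HDX rose by 1.44 ± 0.21, 0.65 ± 0.10 and 0.96 ± 0.16 on the log2 scale. HOPX, whose short protein does not bind DNA, fell from 19187 ± 2510 to 11210.0 ± 2288 (-0.79 ± 0.15). ZFHX4 (-0.79 ± 0.19) and ADNP2 (-0.56 ± 0.14) fell as well, the latter not with library totals. With library totals the 20 genes gave 8 higher and 2 lower with a median of 0.09, and with upper quartiles 5 higher and 6 lower. Of the calls over all genes, 78.9% were higher with library totals and 42.2% with upper quartiles.

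PAX5, the B-lymphocyte factor and the only PAX gene among the rows, stood at 77, 93 and 60 and then at 31, 50 and 62. Hypoxia pool 3 exceeded untreated pool 3, so the groups overlapped. PAX5 lay just outside the threshold (-0.71 ± 0.29, adjusted p = 0.0551, 0.0236 to 0.188 over its alternatives). It passed with upper quartiles (adjusted p = 0.0313) and without untreated pool 3 (adjusted p = 0.0496) or hypoxia pool 3 (adjusted p = 0.0236). The T-box gene TBXT, the brachyury factor of the early mesoderm, was at 2, 2 and 1 and then at 7, 2 and 2. With 5 and 13 reads in all, a difference in TBXT was not detectable at this depth.

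**Figure D3:**
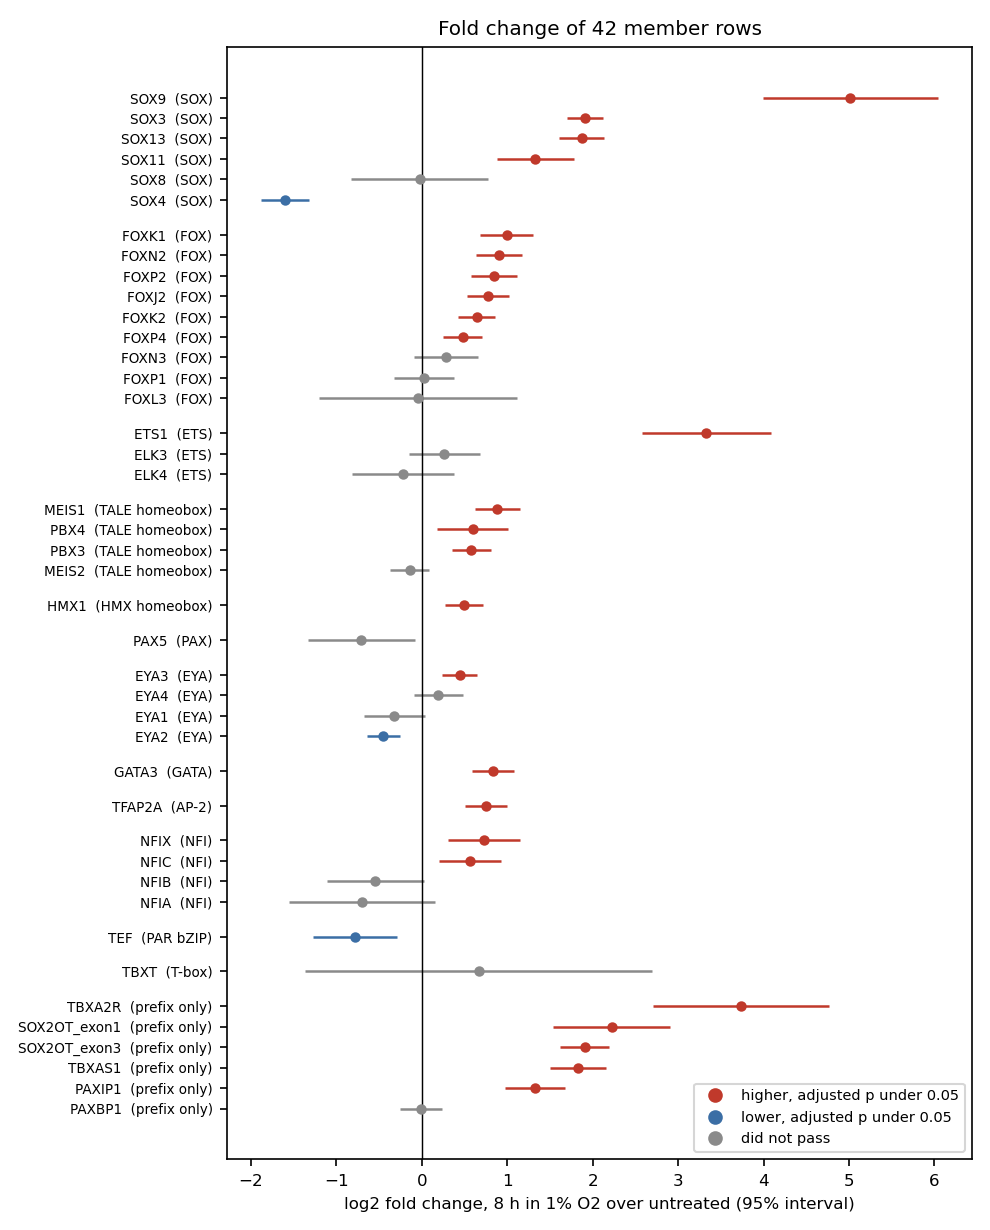
Log2 fold change of 42 members (points) with its 95% interval from limma (bars), grouped by family, in red where the gene was higher, blue where it was lower and grey where it did not pass. All 6 called forkhead genes lie to the right of 0, and the SOX family runs from -1.60 for SOX4 to 5.02 for SOX9.

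The EYA coactivators, which are phosphatases as well as partners of homeodomain factors, divided. EYA2 fell from 1401, 1501 and 1353 to 1025, 1091 and 993 (-0.45 ± 0.09, adjusted p = 0.00122). Every hypoxia pool was below every untreated pool. With library totals the EYA2 fold change was -0.24 and its call was lost (adjusted p = 0.0552). EYA3 rose from 510, 562 and 563 to 771, 757 and 694 (0.44 ± 0.10, adjusted p = 0.0024). EYA1, needed for eye and ear development in mouse and human, stood at 196, 166 and 142 and then at 150, 129 and 122. EYA1 did not pass (-0.32 ± 0.16, adjusted p = 0.115), except with upper quartiles, where it was lower (-0.43, adjusted p = 0.0441). EYA4 was at 618, 584 and 544 and then at 644, 812 and 563 (0.19 ± 0.13, adjusted p = 0.223), and passed as higher with library totals (0.41, adjusted p = 0.0417).

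GATA3, a zinc finger factor whose loss in mouse keeps lens fiber cells in the cell cycle, rose from 673, 703 and 695 to 1433, 1240 and 1055. The untreated pools were nearly level and the hypoxia pools uneven, and the groups did not overlap. The GATA3 log2 fold change was 0.84 ± 0.11 (adjusted p = 9.73e-05). TFAP2A, the AP-2 alpha factor of the lens epithelium, rose from 478, 395 and 378 to 708, 656 and 739 (0.75 ± 0.11, adjusted p = 0.000211). It is also in the list of epithelium markers, where 2 of 10 measured genes were higher and 4 lower. FZD6, a Wnt receptor gene, rose with it (1.02 ± 0.12), while PDGFRA, the receptor through which PDGF drives epithelial growth, fell from 729 ± 140 to 244 ± 30 (-1.57 ± 0.15). SFRP1 and DKK3, secreted proteins acting on Wnt signalling, fell by 0.44 and 0.38 on the log2 scale, calls that ended with library totals. Without untreated pool 1 the list gave 4 higher and 4 lower, and with library totals 4 and 1. Of the calls over all genes, 55.7% were higher without that pool and 78.9% with library totals. The part of epithelial cells in the TFAP2A result was not tested.

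Cofactors that bind sine oculis, EYA, LIM homeodomain, GATA and AP-2 proteins moved both ways, with 9 of 22 measured higher, 4 lower and 9 not passing (median 0.23, from a list of 29). DACH2, a corepressor in the network of EYA proteins, rose from 156 ± 28 to 382 ± 47 (1.29 ± 0.16). ZFPM2, which encodes the GATA cofactor FOG2, stood at 0, 1 and 0 untreated and at 47, 36 and 37 after 8 h. Being so low in untreated pools, ZFPM2 is in the table mainly through its hypoxia values. LDB1, the adaptor of LIM domain factors, rose by 0.99 ± 0.14 on the log2 scale. The TLE genes were mixed. TLE5 (756 ± 156 to 333 ± 49, -1.17 ± 0.15) and TLE3 (-1.51 ± 0.26) fell. TLE1 rose (403 ± 53 to 649 ± 68, 0.69 ± 0.12), and TLE4 did not pass (0.48 ± 0.24, adjusted p = 0.115). Also lower was CITED4, a coactivator of AP-2 proteins (-1.29 ± 0.24). Of 11 cell cycle genes listed as linked to GATA and forkhead factors 8 were measured, with 6 higher and 2 lower (median 1.21). CDKN1A, among the 6, stood at 15, 4 and 7 untreated and at 220, 66 and 121 after 8 h. Being so low in untreated pools, CDKN1A is in the table mainly through its hypoxia values. CDKN1B and MYC rose by 1.41 ± 0.10 and 1.87 ± 0.13 on the log2 scale, and CCNG2, a FOXO target in mammalian cells, fell from 817 ± 22 to 416 ± 57 (-0.98 ± 0.11). CCND2 rose by 1.29 ± 0.10 and MYCN fell by 0.39, the latter with adjusted p = 0.0309. The MYCN call ended with library totals, with or without crystallins, in limma without a trend, and without untreated pool 1, hypoxia pool 2 or hypoxia pool 3.

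Genes of nuclear factor I, whose proteins bind a palindromic site as dimers, comprised 4 members, of which 2 were higher, 0 were lower and 2 did not pass. NFIX rose from 123, 82 and 82 to 174, 158 and 139 (0.73 ± 0.19, adjusted p = 0.00778). NFIC rose from 482, 396 and 390 to 788, 620 and 492 (0.56 ± 0.16, adjusted p = 0.0148). Hypoxia pool 3 of NFIC was only just above untreated pool 1, and the call ended without untreated pool 2 (adjusted p = 0.0552) or 3 (adjusted p = 0.0585). NFIA stood at 86, 43 and 56 and then at 53, 44 and 20, and NFIB at 100, 118 and 74 and then at 54, 93 and 55. Their log2 fold changes were -0.70 ± 0.39 and -0.55 ± 0.26 (adjusted p = 0.146 and 0.0932). NFIB was lower without hypoxia pool 2, its highest hypoxia value (-0.80, adjusted p = 0.0195).

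TEF, a PAR bZIP factor that follows the circadian clock in many tissues, fell from 786, 589 and 524 to 292, 493 and 329 (-0.78 ± 0.22, adjusted p = 0.0146). Hypoxia pool 2 came close to untreated pool 3, and the groups did not overlap. The TEF call ended without hypoxia pool 3 (-0.72, adjusted p = 0.0589) and with library totals (-0.57, adjusted p = 0.0722). Of 3 relatives of TEF listed 2 were measured and both were higher. HLF rose from 246, 231 and 214 to 454, 368 and 686 (1.08 ± 0.20), and NFIL3, a repressor that binds the same DNA element, from 134 ± 39 to 282 ± 68 (1.08 ± 0.23).

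The remaining rows share a prefix with a factor family but encode other proteins. PAXIP1, a subunit of histone methyltransferase complexes, rose from 80, 65 and 75 to 172, 185 and 196 (1.32 ± 0.16, adjusted p = 4.65e-05). PAXBP1, which joins PAX proteins to such complexes in mouse muscle precursors, stood at 410, 407 and 431 and then at 365, 454 and 428. Its log2 fold change was -0.01 with a 95% interval of -0.25 to 0.24. TBXAS1, thromboxane A synthase, and TBXA2R, the receptor for its product, both rose. TBXAS1 went from 232, 281 and 247 to 1150, 769 and 824 (1.83 ± 0.15, adjusted p = 3.78e-06). TBXA2R stood at 12, 5 and 3 untreated and at 129, 63 and 87 after 8 h, or 17 reads against 325. Corrected for the size factors, TBXA2R reads differed 13.7-fold (exact 95% interval 8.44 to 23.9, counting error only; limma log2 fold change 3.73 ± 0.47, or 3.09 with a pseudocount of 5). In both genes hypoxia pool 1 was the highest. TBXA2R, so low in untreated pools, is in the table mainly through its hypoxia values.

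Related members were also set against each other within each pool, which removes the scaling between libraries. Of 23 pairs listed 13 were measured, with FOXP1 in 2 of them, and in 6 pairs the log2 ratios of the groups did not overlap. The share among other pairs of genes was not computed, so the count describes these pairs only. For single genes, 32.6% of all genes tested had the hypoxia pools all above the untreated pools and 30.1% all below. With 3 pools against 3 the exact two-sided permutation test cannot go below p = 0.1, and each of these 6 pairs reached that value (Benjamini-Hochberg adjusted p = 0.217 over 13 pairs). None of the pairs can therefore pass a threshold of 0.05. The log2 ratio of MEIS1 to MEIS2 went from -1.45 ± 0.03 to -0.42 ± 0.08 (SD, n = 3), a difference of 1.03. That of FOXP1 to FOXP2 went from 0.62 ± 0.19 to -0.20 ± 0.14. For FOXN2 to FOXN3 the ratio went from -0.42 ± 0.22 to 0.20 ± 0.38. The SOX4 to SOX11 ratio differed by -2.93 and the SOX8 to SOX9 ratio by -5.04, the latter resting on the low untreated counts of SOX9. In NFIC to NFIX (-0.17), NFIA to NFIB (-0.15), EYA1 to EYA2 (0.13), EYA3 to EYA4 (0.25), FOXK1 to FOXK2 (0.35), FOXP1 to FOXP4 (-0.45) and ELK3 to ELK4 (0.49) the pools overlapped.

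**Figure D4:**
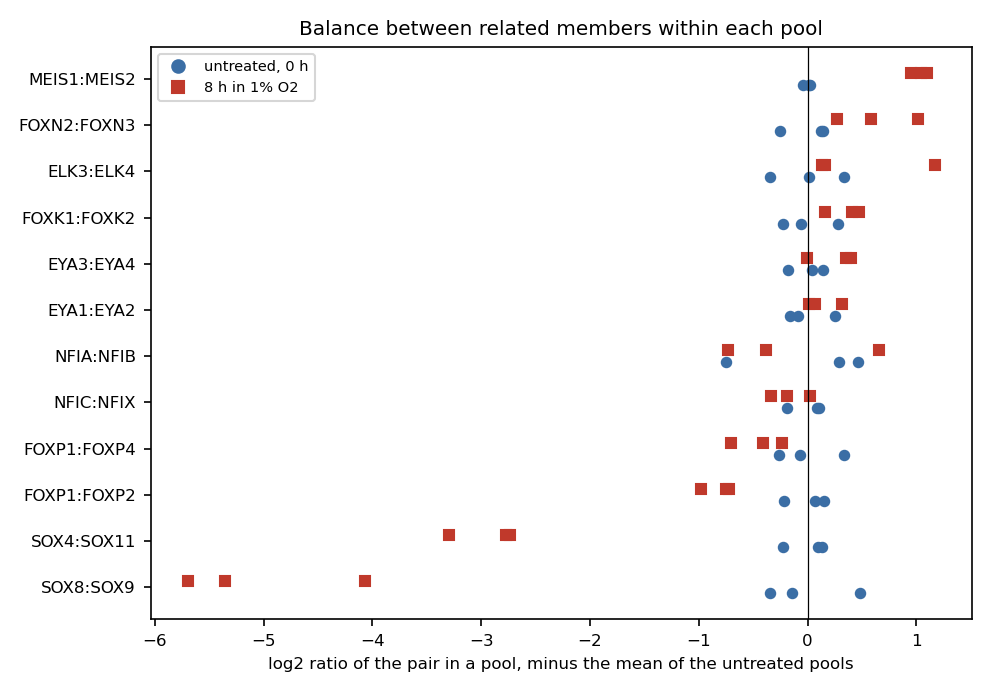
Log2 ratio of 2 related members within each pool, with the mean of the untreated pools set to 0, for 12 of the pairs (circles, untreated pools; squares, hypoxia pools). The groups stand apart in 5 of the pairs drawn, from SOX8:SOX9 at -5.04 to MEIS1:MEIS2 at 1.03, and overlap in the others.

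Several members are known from cell types other than fiber cells, so the markers of those cells are given here. The only endothelial marker measured of 12, PECAM1, fell from 169 ± 12 to 42.3 ± 21.6. The only glial marker measured of 8, FABP7, stood at 29, 46 and 32 and then at 2, 2 and 1. Being so low after 8 h, FABP7 is in the table mainly through its untreated values. Of 13 mesenchyme and fibroblast markers 2 were measured and summed to 168 to 318 untreated and 228 to 361 after 8 h. COL3A1, a fibrillar collagen gene, was higher (1.13 ± 0.19) and DCN did not pass (-0.27, adjusted p = 0.498). Neural retina and ciliary markers, 4 of 15 measured, summed to 1259 to 2010 and then 915 to 1625, with GAP43 higher (1.44 ± 0.34) and OPTC lower (-1.77 ± 0.21). The pigment cell markers measured, MITF and PMEL of 10, summed to 124 to 181 and then 327 to 585. MITF rose from 125 ± 17 to 300.3 ± 50.6 and PMEL, at 179, 39 and 229 after 8 h, lost its call without untreated pool 2 or 3 or hypoxia pool 1 or 3. Blood markers, 3 of 13 measured, summed to 356 to 475 and 298 to 472, with 0 called. The part of these cells in the rises of SOX9 and ETS1 was not tested.

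Cartilage and matrix genes that SOX9 and the group D factors switch on in chondrocytes were listed as well. Of 10 listed 5 were measured, with 0 higher and 4 lower (median -2.75). Among all genes tested, 140 had a hypoxia mean under 20, and such genes are in the table mainly through their untreated values. COL9A1 (hypoxia mean 3.7) and COL9A3 are of that kind. Untreated pool 2 was the highest for COL9A1 (188, against 71 and 77), COL9A2 and COL9A3. A link of these genes to SOX9 or SOX13 was not tested. COL9A2 fell from 162 ± 74 to 23.0 ± 9.5 (-2.75 ± 0.37) and COL9A3 from 66.3 ± 33.3 to 7.0 ± 2.0 (-2.99 ± 0.43), and COL9A1 was also lower (-4.95 ± 0.76). COL2A1 stood at 1122 ± 71 and 1002 ± 170 and did not pass (-0.17, adjusted p = 0.234), but was lower without hypoxia pool 1 (-0.30, adjusted p = 0.0285).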

How the data were processed

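RNA-seq of 6 pools of chick lens fiber cells (TruSeq Stranded mRNA libraries) was analysed from 1 table of 9107 genes. Its values are scores, that is, read counts that the authors divided by a size factor for each library and rounded, as the values of the deposited table show; per the submitters' processing notes the build is galGal6 and the tools named, with no role or version, are cutadapt, STAR, HISAT2, Bowtie2, StringTie, edgeR and DESeq2. For the counting program, the annotation and the strand setting, the sources used here give nothing. The shrunken log2 fold change and the adjusted p-value were the authors' own, per the file headers.

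One row with a value that was not whole was left out. Because the values were not raw counts, the edgeR test planned for counts was not run, and rows with a mean of at least 1 were fitted as log2(value + 1) with limma 3.58.1 (R 4.3.3), with a trend and robust moderation, and Benjamini-Hochberg adjustment over 9105 genes. The script was tested on simulated data with a fixed spread. It called 58% of 50 genes changed 1.5-fold and 96% of 50 changed 2-fold, and 10 of its 187 calls were of unchanged genes. The simulation made 187 calls among 9087 genes, and the main fit 5017 among 9105. The recovery rates of the simulation therefore do not carry over to these data. A gene that did not pass can still hold a change of 1.5-fold or more. The interval of FOXL3, for example, ran from -1.20 to 1.11 on the log2 scale. Reads were recovered only for depth and for genes with low values, and their intervals cover counting error only. Paralog ratios were compared with exact permutation tests (scipy 1.17.1).

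Members and gene lists were chosen with earlier results of these data known. Pool values were set to be printed for members changed at least 2-fold, for the 8 of highest mean and for any listed at 0 throughout a group. From each list up to 3 genes a direction, by adjusted p, were named. Relatives of those (ETV4, TLE1, TLE4, SPRY1, SPRY2, SPRED2) and CDKN1A were added after their values were seen. Pool values of other members were added to describe the families. Alternatives changed the pseudocount, the filter, the scaling, the moderation and the replicate block, and left out each pool in turn; those for the paralog ratios were chosen after seeing the data. A planned motif search in promoters was not run. The values of 1 member, and of 1 pair that holds it, are not reported here, though both stay in the counts. Symbols of 39 of the 43 members matched RefSeq.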

Additional observations from a re-analysis of the deposited data

How the results depend on the processing

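Over 17 alternatives, 711 of 730 member fold changes kept their side of the threshold, 7 lost a call and 12 gained one. Where the main fit or the alternative passed, 0 changed direction. Members that did not pass could change sign, such as FOXP1 (-0.11 to 0.24 over all fits), SOX8 (-0.41 to 0.19) and MEIS2 (-0.26 to 0.07). Of the 28 members called, 24 were called in every alternative, 23 of them higher and SOX4 lower. Members higher numbered 24 to 27. Members lower numbered 1 with library totals, 6 with upper quartiles and 5 with the replicate block, and leaving out each pool gave 3 to 5, the highest without hypoxia pool 2. Over all genes, library totals gave 3647 higher and 976 lower (78.9% of calls higher, against 53.4%), upper quartiles 2253 and 3087 (42.2%), and totals without crystallins 3087 and 1726 (64.1%). The cause was not tested. Deviations of same-numbered pools correlated at 0.123, 0.11 and 0.0191, and those of differently numbered pools at -0.168 to 0.0653. With 3 pools a group these values cannot settle whether replicate numbers pair the pools. With the block 25 members were higher, and PAX5 (adjusted p = 0.0479) and NFIB (adjusted p = 0.0384) joined the lower ones. The number of paralog pairs whose groups did not overlap ran from 6 to 9, the higher counts with fewer pools. Depth limits SOX9, TBXA2R, ETS1 and TBXT most: with a pseudocount of 5 the log2 fold changes of SOX9 and TBXA2R were 4.03 and 3.09.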
